A study of Mus musculus with 4 samples.

Results

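The cyclins and inhibitors that govern the G1 phase of the cell cycle were examined in cultured mammary fibroblasts, as 10 genes measured by 20 probe sets of an Affymetrix mouse array. The genes were the D-type cyclins Ccnd1, Ccnd2 and Ccnd3, the E-type cyclins Ccne1 and Ccne2, and the inhibitors Cdkn1a, Cdkn1b, Cdkn2a, Cdkn2b and Cdkn2c. A probe set was taken when the platform annotation gave it a single gene symbol and that symbol was one of these 10, out of 20380 probe sets with a single gene and 12393 genes in all. The fibroblasts came from mammary glands of female FVB/N mice aged 9 weeks and were used at the second passage in serum. The 4 groups were PyMT Ets2-null (PyMT;Fsp-cre;Ets2db/loxP), PyMT Ets2-present (PyMT;Ets2db/loxP), normal Ets2-null (Fsp-cre;Ets2db/loxP) and normal Ets2-present (Ets2db/loxP), with 1 array each. PyMT is a viral oncogene expressed in the mammary epithelium under the MMTV promoter, so that the fibroblasts of PyMT mice did not need to carry an active oncogene themselves. Fsp-cre drives Cre recombinase from the promoter of fibroblast specific protein 1 and removes the conditional (loxP) allele of Ets2, a transcription factor of the ETS family activated by Ras and MAP kinase signalling. All 4 groups carried the db allele, a conventional Ets2 knockout, so that the Ets2-present fibroblasts had a single functional copy and no group had the full set. The transgene for Cre was present in the Ets2-null groups alone, and an effect of it cannot be told apart from one of Ets2 loss. How many mice contributed to an array was not given in the sources used here.

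D-type cyclins accumulate when growth factors act on a resting cell, and they activate the kinases Cdk4 and Cdk6. E-type cyclins follow and activate Cdk2. Together the kinases phosphorylate the retinoblastoma protein, which releases E2F transcription factors to switch on the genes of DNA replication, the E-type cyclins among them. Inhibitors of the Cip/Kip family (Cdkn1a, or p21, and Cdkn1b, or p27) bind cyclin-kinase complexes, whereas the INK4 inhibitors (Cdkn2a, Cdkn2b and Cdkn2c, or p16, p15 and p18) bind Cdk4 and Cdk6 themselves. Cultured fibroblasts are the cells in which much of this was worked out, and they build up p16, p19Arf and p21 when they stop dividing in culture.

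Values were log2 probe set levels from Robust Multichip Average (RMA). The probe set with the highest mean stood for its gene. A gene was kept if any of its 4 levels was at or above 4.63, which is the 40th percentile of all values, and this left 8686 genes with all 10 G1 genes among them. Differences are given on the log2 scale, as Ets2-null minus Ets2-present or as PyMT minus normal, and a gene at least 2-fold apart was counted. With 1 array per group a difference is one between a pair of arrays, without replicate error or p-value. As the only available gauge of error, the SD of the disagreement between the 2 brightest kept probe sets of a gene, over 3376 genes, was 0.69 for the Ets2 difference in PyMT and 0.48 in normal fibroblasts, and 0.70 and 0.51 for the PyMT difference in Ets2-null and in Ets2-present fibroblasts. This gauge misses any error that the probe sets of an array share. In RNA from a culture, fewer cells of a type and less RNA per cell cannot be told apart.

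Array medians lay between 5.63 and 5.74, and correlations between arrays ran from 0.959 to 0.985, the 3 lowest being those of the PyMT Ets2-null array. That array was higher than the other 3 in 18S ribosomal RNA controls (by 1.47 to 1.69 on average) and in the bioB, bioC and bioD spike-in controls (by 0.49 to 0.69). The 3′ minus 5′ difference of Gapdh, a sign of RNA integrity, was 0.859 there, against 0.763 to 0.997 on the other arrays. That of actin was larger, 2.02 on the PyMT Ets2-null array against 1.95 to 2.38 on the other arrays. The Ets2 probe set read 11.22 in PyMT Ets2-null and 11.21 in PyMT Ets2-present fibroblasts, and 11.89 in normal Ets2-null and 11.86 in normal Ets2-present fibroblasts. Its position with respect to the deletion is not given in the sources used here, so it does not check the deletion. Of 12 fibroblast markers, all were above 4.63 on each array, and their summed log2 level was 15.8 in PyMT Ets2-null, 15.5 in PyMT Ets2-present, 15.8 in normal Ets2-null and 15.7 in normal Ets2-present fibroblasts. The brightest markers lead this sum, and single markers differed more. In the Ets2 difference in PyMT fibroblasts 8 of the 12 were above 0, with Pdgfra at 1.41 and Pdgfrb at 0.56. Below 0 were 4, among them Fap (-2.37) and Thy1 (-1.25). The PyMT difference was -5.80 for Lum and -2.41 for Dcn in Ets2-null fibroblasts (6 of 12 markers above 0). In Ets2-present fibroblasts it was -2.53 for Lum and -1.11 for Dcn (4 of 12 above 0). The summed level of 18 macrophage and myeloid markers was 10.9 in PyMT Ets2-null, 11.4 in PyMT Ets2-present, 9.83 in normal Ets2-null and 9.94 in normal Ets2-present fibroblasts, with 6 to 9 of the 18 below 4.63. Within the list Lyz1 differed by -0.13 and Lyz2 by -0.04 between PyMT Ets2-null and PyMT Ets2-present fibroblasts. Of the 14 kept markers 12 were below 0 in that Ets2 difference (median -0.61), 6 by at least 2-fold, among them Lcp1 (-3.16), Msr1 (-2.28) and Csf1r (-1.93), so that these markers were lower in the same comparison in which Ccnd1 and Ccne2 differed. Their part in those differences was not tested. Of 10 epithelial markers 6 to 8 were below 4.63, with a summed log2 level between 7.78 in normal Ets2-null and 8.62 in normal Ets2-present fibroblasts. The sum hides keratins that went opposite ways. In the PyMT difference in Ets2-null fibroblasts Krt19 had 2.8 and Krt18 -2.2 (4 of 5 kept markers above 0). In Ets2-present fibroblasts Krt19 had 2.4 and Krt18 -3.8 (2 of 5 above 0). The T, NK and B cell markers (5) were below 4.63 on every array.

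Loss of Ets2 in PyMT fibroblasts went with a higher level of the D-type cyclin Ccnd1 and a lower level of the E-type cyclin Ccne2. Ccnd1 was 5.35-fold higher in the PyMT Ets2-null than in the PyMT Ets2-present array and Ccne2 2.89-fold lower, while the inhibitor Cdkn2a differed by 1.96 on the log2 scale against a level of 3.60, under 4.63. These were the members at least 2-fold apart, 2 of 10 higher, where 7.64% of all kept genes were at least 2-fold higher, and 1 of 10 lower, where 7.77% were. With values under 4.63 raised to it Cdkn2a had 0.93, so that Ccnd1 was the single member at least 2-fold higher. Over the 10 genes the median difference was 0.34, against 0.02 over all kept genes. In normal fibroblasts 0 of the 10 were at least 2-fold higher and 0 at least 2-fold lower, against 3.02% and 2.41% of all kept genes, and the median difference was 0.12 against -0.02.

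Ccnd1, the cyclin most closely tied to growth factor signalling, was read by 3 probe sets. The brightest (1448698_at) had levels of 10.10 in PyMT Ets2-null and 7.68 in PyMT Ets2-present fibroblasts, and 7.60 in normal Ets2-null and 7.94 in normal Ets2-present fibroblasts. Probe set 1417420_at read 8.07 in PyMT Ets2-null and 6.15 in PyMT Ets2-present fibroblasts, and 6.28 in normal Ets2-null and 6.65 in normal Ets2-present fibroblasts. Probe set 1417419_at read 7.08 in PyMT Ets2-null and 5.43 in PyMT Ets2-present fibroblasts, and 4.85 in normal Ets2-null and 5.74 in normal Ets2-present fibroblasts. On each of the 3 the PyMT Ets2-null array was the highest of the 4 by more than 1 log2 unit, and the other 3 arrays spanned less than 1 log2 unit. The Ets2 difference in PyMT fibroblasts was 1.65 to 2.42 over the 3 probe sets, each beyond the probe set disagreement of 0.69. In normal fibroblasts it was -0.89 to -0.34, below 0 on all 3. Among the 8686 kept genes Ccnd1 was number 19 from the top of the Ets2 difference in PyMT fibroblasts and number 39 from the top of the PyMT difference in Ets2-null fibroblasts. The kept genes whose 4 levels, each centred on its own mean, came nearest to those of Ccnd1 were Tinagl1, a matrix protein related to cathepsin B (largest gap on any of the 4 arrays 0.09), Ern1, a sensor kinase of the unfolded protein response (0.22), Atp6v0a4, a proton pump subunit (0.23), Kcnc4, a potassium channel (0.25), and Pou2af1, a B cell transcriptional coactivator (0.28). That the PyMT Ets2-null array was the high one in each of these genes follows from how they were chosen. Ern1, Atp6v0a4, Kcnc4 and Pou2af1 were below 4.63 on the other 3 arrays and were kept through that array alone. Pou2af1 read 4.67 and Ern1 4.99 there, near the filter level.

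**Figure D1:**
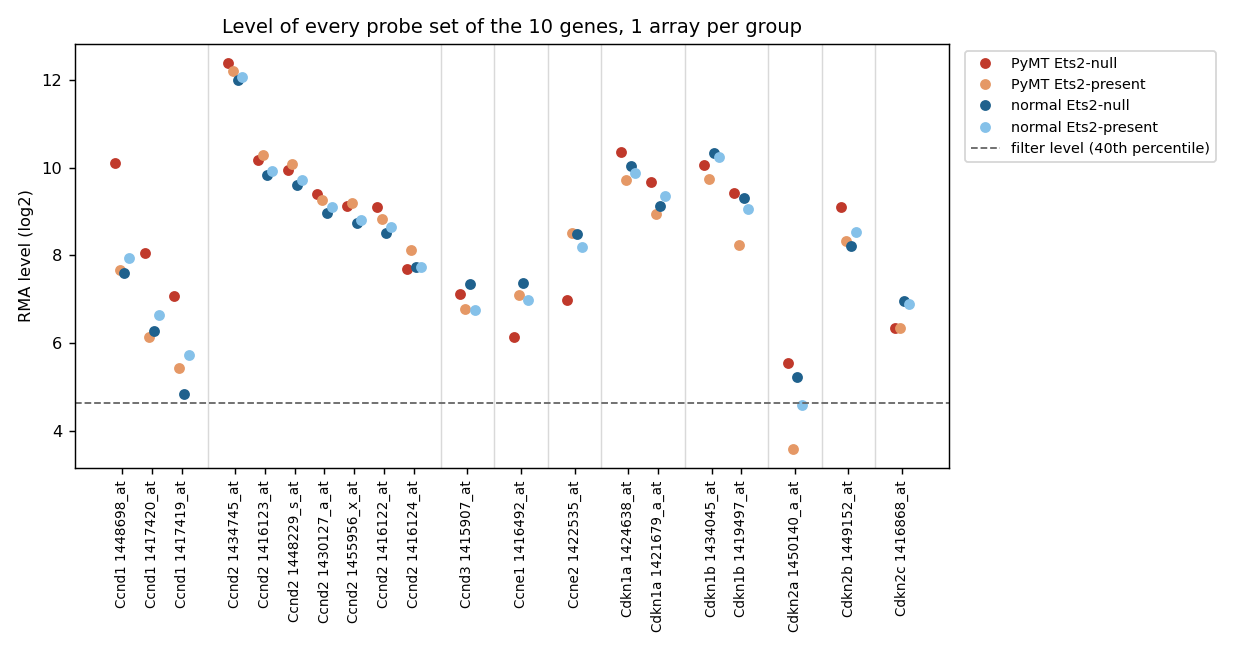
RMA level (log2, vertical) of each of the 20 probe sets of the 10 genes, with a point per array and the arrays of PyMT Ets2-null, PyMT Ets2-present, normal Ets2-null and normal Ets2-present fibroblasts from left to right; the dashed line is the filter level of 4.63. The PyMT Ets2-null array stands above the others on the 3 Ccnd1 probe sets and below them on Ccne1 and Ccne2.

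The other D-type cyclins did not share this pattern. Ccnd2, which can replace Ccnd1 in many cell types, was read by 7 probe sets. The brightest (1434745_at) had levels of 12.38 in PyMT Ets2-null and 12.19 in PyMT Ets2-present fibroblasts, and 11.99 in normal Ets2-null and 12.06 in normal Ets2-present fibroblasts. Its 4 levels spanned 0.38, the narrowest range of the 10 genes. The Ets2 difference in PyMT fibroblasts ran from -0.43 to 0.26 over the 7 probe sets, 3 of them above 0 and 4 below, so no direction was established. The PyMT difference in Ets2-present fibroblasts was above 0 on all 7, from 0.13 to 0.40, smaller than the disagreement of 0.51.

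Ccnd3, the remaining D-type cyclin, had levels of 7.13 in PyMT Ets2-null and 6.78 in PyMT Ets2-present fibroblasts, and 7.35 in normal Ets2-null and 6.75 in normal Ets2-present fibroblasts. Both Ets2-null arrays were above both Ets2-present arrays. The Ets2 difference was 0.35 in PyMT fibroblasts, within the disagreement, and 0.60 in normal fibroblasts, just beyond it.

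The E-type cyclins ran opposite to Ccnd1. Ccne2, a partner of Cdk2, had a level of 6.98 in PyMT Ets2-null and 8.51 in PyMT Ets2-present fibroblasts, against 8.49 in normal Ets2-null and 8.19 in normal Ets2-present fibroblasts. Its close relative Ccne1 had levels of 6.15 in PyMT Ets2-null and 7.10 in PyMT Ets2-present fibroblasts, and 7.38 in normal Ets2-null and 6.98 in normal Ets2-present fibroblasts. For both genes the PyMT Ets2-null array was the lowest of the 4 and the other 3 arrays lay within 0.40 of each other. The Ets2 difference in PyMT fibroblasts was -1.53 for Ccne2 and -0.95 for Ccne1, both beyond the disagreement of 0.69. In normal fibroblasts it was 0.30 for Ccne2 and 0.40 for Ccne1, within that of 0.48. Each of these genes is read by a single probe set, so there was no second reading on the same array.

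Neither Cip/Kip inhibitor was 2-fold apart on its brighter probe set in the Ets2 difference in PyMT fibroblasts. Cdkn1a (p21), which p53 induces and which stops cells in G1, was read by probe set 1424638_at at 10.36 in PyMT Ets2-null and 9.71 in PyMT Ets2-present fibroblasts, and at 10.04 in normal Ets2-null and 9.88 in normal Ets2-present fibroblasts. Probe set 1421679_a_at read 9.68 in PyMT Ets2-null and 8.95 in PyMT Ets2-present fibroblasts, and 9.12 in normal Ets2-null and 9.35 in normal Ets2-present fibroblasts. On both probe sets the PyMT Ets2-null array was the highest and the PyMT Ets2-present array the lowest. The Ets2 difference in PyMT fibroblasts was 0.65 and 0.73, about the size of the disagreement. In normal fibroblasts the probe sets differed in sign (0.16 and -0.23).

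Cdkn1b (p27), which holds resting cells out of the cycle, was read by 2 probe sets that disagreed in size. The brighter (1434045_at) had levels of 10.06 in PyMT Ets2-null and 9.73 in PyMT Ets2-present fibroblasts, and 10.33 in normal Ets2-null and 10.24 in normal Ets2-present fibroblasts. Probe set 1419497_at read 9.41 in PyMT Ets2-null and 8.24 in PyMT Ets2-present fibroblasts, and 9.32 in normal Ets2-null and 9.05 in normal Ets2-present fibroblasts. The PyMT Ets2-present array was the lowest of the 4 on both probe sets. The Ets2 difference in PyMT fibroblasts was 0.32 on the first, under the disagreement, and 1.17 on the second, beyond it.

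The INK4 inhibitors were uneven. Cdkn2a had a level of 5.56 in PyMT Ets2-null and 3.60 in PyMT Ets2-present fibroblasts, against 5.23 in normal Ets2-null and 4.61 in normal Ets2-present fibroblasts. Both Ets2-null arrays were above 4.63 and both Ets2-present arrays below it, the normal one only just. The Ets2 difference was 1.96 in PyMT and 0.62 in normal fibroblasts. The size of the difference in PyMT fibroblasts rests on a signal under 4.63, as the value of 0.93 with low values raised shows. Cdkn2b (p15), an inhibitor that TGF-beta induces and the neighbour of Cdkn2a on the chromosome, had levels of 9.09 in PyMT Ets2-null and 8.32 in PyMT Ets2-present fibroblasts, and 8.21 in normal Ets2-null and 8.53 in normal Ets2-present fibroblasts. The PyMT Ets2-null array was again the highest, with an Ets2 difference of 0.77 in PyMT and -0.32 in normal fibroblasts. Cdkn2c (p18) had levels of 6.35 in PyMT Ets2-null and 6.34 in PyMT Ets2-present fibroblasts, and 6.96 in normal Ets2-null and 6.90 in normal Ets2-present fibroblasts. Both PyMT arrays were below both normal arrays. Its PyMT difference was -0.61 in Ets2-null and -0.56 in Ets2-present fibroblasts, under the disagreement of 0.70 in Ets2-null and just beyond that of 0.51 in Ets2-present fibroblasts. As a set, the 5 inhibitors were all above 0 in the Ets2 difference in PyMT fibroblasts (median 0.65), Cdkn2a alone at least 2-fold and 0 of them with low values raised. Among them Cdkn2c at 0.02 and Cdkn1b at 0.32 were within the disagreement of 0.69. In normal fibroblasts 4 of 5 were above 0 (median 0.09). Of all 8686 kept genes 4453 were above 0 in PyMT and 4093 in normal fibroblasts.

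**Figure D2:**
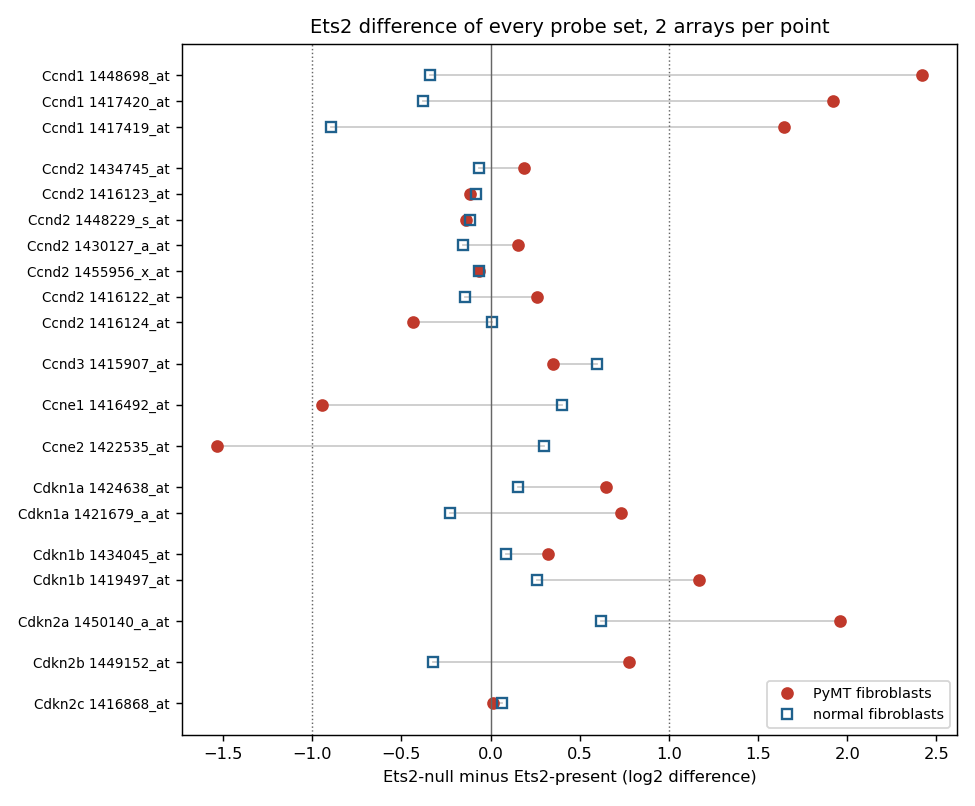
Ets2-null minus Ets2-present log2 difference (horizontal) of each of the 20 probe sets, in PyMT fibroblasts (filled circles) and in normal fibroblasts (open squares), each from a pair of arrays; dotted lines mark 2-fold. The 3 Ccnd1 probe sets lie between 1.65 and 2.42 in PyMT fibroblasts and below 0 in normal fibroblasts, and Ccne1 and Ccne2 lie on the opposite sides.

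The sequences before the starts of 3 inhibitor genes are shown: Cdkn2a because a single probe set reads a gene with 2 starts, Cdkn2b as its neighbour, and Cdkn1a because its window holds a motif of p53. RefSeq on GRCm38.p6 gave promoter windows for 7 of the 10 genes (11 windows, since several genes have more than a single start); Ccnd1, Ccnd2 and Ccne2 had none in the table used. Cdkn2a has an upstream start, used for p19Arf, and a downstream start, used for p16, and probe set 1450140_a_at cannot be assigned to either from the files. The windows are the 250 bases before the upstream Cdkn2a start (chr4:89294620-89294869, minus strand), before the downstream Cdkn2a start (chr4:89282193-89282442, minus strand), before Cdkn2b (chr4:89311033-89311282, minus strand) and before the upstream start of Cdkn1a (chr17:29090729-29090978, plus strand). Capitals mark the motif matches that were found.
Cdkn2a upstream start: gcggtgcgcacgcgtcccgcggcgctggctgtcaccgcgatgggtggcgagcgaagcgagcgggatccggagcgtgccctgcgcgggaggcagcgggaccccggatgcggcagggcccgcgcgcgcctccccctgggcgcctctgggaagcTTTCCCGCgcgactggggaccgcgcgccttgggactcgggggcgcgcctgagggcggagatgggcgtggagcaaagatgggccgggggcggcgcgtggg
Cdkn2a downstream start: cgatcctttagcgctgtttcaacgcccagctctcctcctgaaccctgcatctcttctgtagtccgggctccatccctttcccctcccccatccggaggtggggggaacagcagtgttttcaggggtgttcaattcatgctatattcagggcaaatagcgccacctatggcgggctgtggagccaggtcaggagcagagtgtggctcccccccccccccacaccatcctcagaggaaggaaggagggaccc
Cdkn2b: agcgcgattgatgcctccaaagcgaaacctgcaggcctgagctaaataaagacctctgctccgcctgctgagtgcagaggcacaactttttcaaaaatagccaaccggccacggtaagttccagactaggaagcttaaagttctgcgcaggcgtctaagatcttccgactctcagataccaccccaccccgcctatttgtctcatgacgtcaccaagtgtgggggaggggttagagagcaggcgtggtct
Cdkn1a upstream start: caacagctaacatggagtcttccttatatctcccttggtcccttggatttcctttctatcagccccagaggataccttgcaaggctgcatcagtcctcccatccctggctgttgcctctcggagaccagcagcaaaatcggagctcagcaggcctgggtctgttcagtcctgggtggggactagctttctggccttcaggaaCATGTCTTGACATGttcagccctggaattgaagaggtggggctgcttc

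The words searched, on both strands, were CCGGAA for ETS factors, TGACTCA for AP-1, and TTTGGCGC, TTTCCCGC, TTTCGCGC and TTTGCCGC for E2F. A core of the p53 element, CATGNNNNNNCATG, was added after the sequences had been seen. The share of all windows with it therefore does not measure how unusual a match here is. An E2F word was found in 1 of the 11 windows, that of the upstream Cdkn2a start, at position -99, against 1.86% of the 32851 windows in the table. The p53 core was found in 1 of the 11, that of the upstream Cdkn1a start, at position -48, against 0.49% of all windows. The ETS word was found in 1 of the 11, a Ccnd3 window not shown, against 12.0% of all windows, and the AP-1 word in 0 of the 11, against 4.46%. A match is a run of letters and not evidence of binding.

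In the PyMT difference in Ets2-null fibroblasts the 10 genes had a median of 0.05, as did all kept genes (0.05), with 5 above 0 and 5 below, and the shares at least 2-fold apart were near those of all kept genes. The PyMT Ets2-null array was above the normal Ets2-null array by 2.49 on the log2 scale for Ccnd1, the only member at least 2-fold higher (1 of 10, against 9.69% of all kept genes). It was below it by a difference of -1.51 for Ccne2 and -1.23 for Ccne1, the members at least 2-fold lower (2 of 10, against 11.2%). Cdkn2b had a difference of 0.88, and the other 6 genes lay between -0.61 and 0.38. In Ets2-present fibroblasts 0 members were at least 2-fold higher with PyMT (5.42% of all kept genes) and 1 was at least 2-fold lower (6.22%). That member was Cdkn2a, whose difference of -1.01 was just past 2-fold and came from 2 arrays below 4.63. Here all 5 inhibitors were below 0 (median -0.51), or 4 of 5 with a median of -0.21 when low values were raised, Cdkn2c at -0.56 and Cdkn1b at -0.51, while 4 of the 5 cyclins were above 0 (median 0.12), Ccne2 the highest of them at 0.32. Of all 8686 kept genes 4379 were below 0 and 4299 above 0 in this comparison. The 2 PyMT comparisons share no array with each other, but each shares an array with each Ets2 comparison, so that the high Ccnd1 and the low Ccne1 and Ccne2 of the PyMT Ets2-null array enter both sets of differences. Adipocyte markers (4, of which 2 were below 4.63 on every array) were higher with PyMT, with a summed log2 level of 10.1 in PyMT Ets2-null and 7.28 in normal Ets2-null fibroblasts, and 10.3 in PyMT Ets2-present and 7.92 in normal Ets2-present fibroblasts. The fatty acid carrier Fabp4 led them, reading 10.0 in PyMT Ets2-null and 6.82 in normal Ets2-null fibroblasts, and 9.96 in PyMT Ets2-present and 7.64 in normal Ets2-present fibroblasts. The part of other cells in the G1 differences was not tested.

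When the Ets2 difference of normal fibroblasts was taken away from that of PyMT fibroblasts, the result was 2.76 for Ccnd1, 1.34 for Cdkn2a and 1.10 for Cdkn2b, the members at least 2-fold higher (3 of 10, against 10.2% of all kept genes). It gave -1.83 for Ccne2 and -1.35 for Ccne1, the members at least 2-fold lower (2 of 10, against 11.2%). With low values raised Cdkn2a had 0.33, so that 2 of 10 were at least 2-fold higher. For the other 4 genes the subtraction was beyond the probe set disagreement of 0.86, and over the 3 probe sets of Ccnd1 it ran from 2.30 to 2.76. On their brightest probe sets Ccnd2, Ccnd3, Cdkn1b and Cdkn2c lay between -0.25 and 0.25, and Cdkn1a had 0.49. Other probe sets differed: Cdkn1b had 0.91 on 1419497_at and Cdkn1a 0.96 on 1421679_a_at, both beyond 0.86. Over the 7 probe sets of Ccnd2 the subtraction ran from -0.44 to 0.41.

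**Figure D3:**
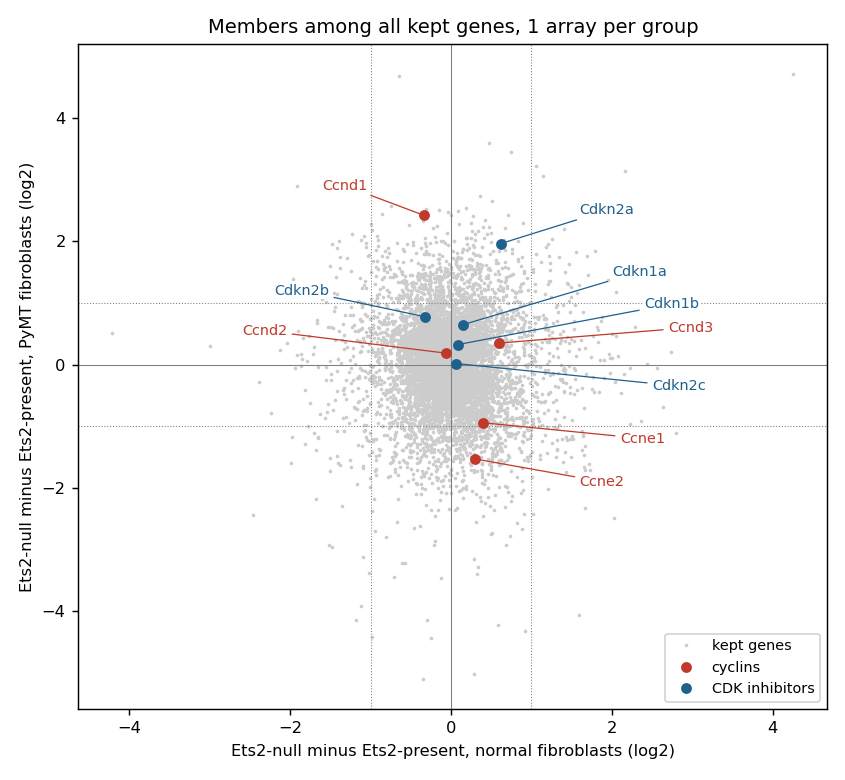
Log2 difference, Ets2-null minus Ets2-present, with PyMT fibroblasts on the vertical and normal fibroblasts on the horizontal axis, for the 8686 kept genes (grey) with the 5 cyclins in red and the 5 CDK inhibitors in blue; dotted lines mark 2-fold. Ccnd1 is the highest member at 2.42, Ccne2 is the lowest member at -1.53, and all 10 lie inside the 2-fold lines for normal fibroblasts.

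The genes on either side of the G1 regulators were described from fixed lists, to be read against the 7.64% of all kept genes at least 2-fold higher and the 7.77% lower in the Ets2 difference in PyMT fibroblasts. Of the kinases and activators that G1 cyclins work with, 7 of 8 were kept; 0 were at least 2-fold higher and 1 lower in the Ets2 difference in PyMT fibroblasts (median -0.10). The lower was Cdc25a, the phosphatase that activates Cdk2, with levels of 6.35 in PyMT Ets2-null and 7.88 in PyMT Ets2-present fibroblasts, and 7.56 in normal Ets2-null and 7.05 in normal Ets2-present fibroblasts. Like the E-type cyclins, it was lowest in the PyMT Ets2-null array. Cdk4, the kinase of Ccnd1, had an Ets2 difference of -0.10 in PyMT fibroblasts, and Cdk2 0.16. Of 3 further inhibitors 1 was kept, Cdkn2d of the INK4 family, which was 1.18 higher on the log2 scale in PyMT Ets2-null than in PyMT Ets2-present fibroblasts. It read 7.28 in PyMT Ets2-null and 6.10 in PyMT Ets2-present fibroblasts, and 7.30 in normal Ets2-null and 7.01 in normal Ets2-present fibroblasts, so that the PyMT Ets2-present array stood low.

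Among the pocket proteins and E2F factors, 2 of 10 were at least 2-fold higher in PyMT Ets2-null than in PyMT Ets2-present fibroblasts and 0 lower (median -0.14). Rbl2 (p130), the pocket protein of resting cells, was 1.19 higher and E2f4, an E2F that p130 binds, 1.31 higher on the log2 scale. E2f4 read 3.86 in PyMT Ets2-present fibroblasts, under 4.63, and with low values raised 1 of the 10 was at least 2-fold higher. Rbl1 (p107), the pocket protein of cycling cells, had -0.82 and E2f1 -0.58.

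Of 15 E2F targets of S phase 4 were at least 2-fold lower in the Ets2 difference in PyMT fibroblasts and 0 higher, against 7.77% and 7.64% of all kept genes. Below 0 were 12 and above 0 were 3, with a median of -0.65. Cdc6 and Cdt1, which load the replicative helicase, had differences of -2.15 and -2.08, Orc1, of the origin recognition complex, -1.80 and Mcm2, a helicase subunit, -1.62. Cdt1 read 5.87 in PyMT Ets2-null and 7.95 in PyMT Ets2-present fibroblasts, and 8.19 in normal Ets2-null and 8.18 in normal Ets2-present fibroblasts. As for Ccne1 and Ccne2, the PyMT Ets2-null array was the low one and the others lay together. Orc1 was below 4.63 in PyMT Ets2-null fibroblasts (3.42) and in normal Ets2-null fibroblasts (3.93), and with low values raised it had -0.58, which left 3 of the 15 at least 2-fold lower. Further helicase subunits, Mcm5 and Mcm7, had -0.94 and -0.63, while Tk1 and Tyms, enzymes of thymidine nucleotide synthesis, had 0.56 and 0.97. Tyms read 5.19 in PyMT Ets2-null and 4.23 in PyMT Ets2-present fibroblasts, the latter under 4.63, so the size of its difference rests on a low signal. In normal fibroblasts the median of the list was 0.14.

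Genes of mitosis were read in the same comparisons. In the Ets2 difference in PyMT fibroblasts 9 of 11 were above 0, but only Ccnb2, a mitotic cyclin, was at least 2-fold apart (1.08), and the median was 0.31. In the PyMT difference 11 of 11 were below 0, in Ets2-null (median -1.11, 8 at least 2-fold lower, against 11.2% of all kept genes) and in Ets2-present fibroblasts (median -1.28, 11 at least 2-fold lower, against 6.22%). The S phase list was also below 0 in 15 of 15 in Ets2-null fibroblasts (median -0.92, 7 at least 2-fold lower), and in 8 of 15 in Ets2-present fibroblasts (median -0.23, 2 at least 2-fold lower). The difference between the lists was not tested. Aurka, a kinase of the spindle poles, read 5.64 in PyMT Ets2-null and 7.45 in normal Ets2-null fibroblasts, and 5.25 in PyMT Ets2-present and 7.38 in normal Ets2-present fibroblasts. Both PyMT arrays were thus below both normal arrays, unlike Ccnd1, Ccne1 and Ccne2, for which the PyMT Ets2-present array lay with the normal ones.

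Of 12 genes of the p53 pathway on the array 11 were kept. Bbc3, left out by the filter, had an Ets2 difference of -0.23 in PyMT fibroblasts. The 11 kept genes were all above 0 in that comparison, as was their fellow target Cdkn1a, against 4453 of all 8686 kept genes. Their median was 0.76, and 5 of the 11 were at least 2-fold higher, against 7.64% of all kept genes. They were Sesn2 (1.73), a stress-induced regulator of growth signalling, Gadd45a (1.55), a growth arrest gene, Trp53inp1 (1.35), Plk2 (1.08), a kinase that p53 induces, and the death receptor Fas (1.06). Gadd45a read 8.35 in PyMT Ets2-null and 6.80 in PyMT Ets2-present fibroblasts, and 7.71 in normal Ets2-null and 7.45 in normal Ets2-present fibroblasts. For Sesn2 the PyMT Ets2-present array was below 4.63 (3.96), and with low values raised its difference was 1.05. In normal fibroblasts 8 of the 11 were below 0 (median -0.35), with 1 at least 2-fold lower, Sesn2 at -1.29. The medians of the S phase and p53 lists kept their sign in both Ets2 comparisons under every alternative tried.

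**Figure D4:**
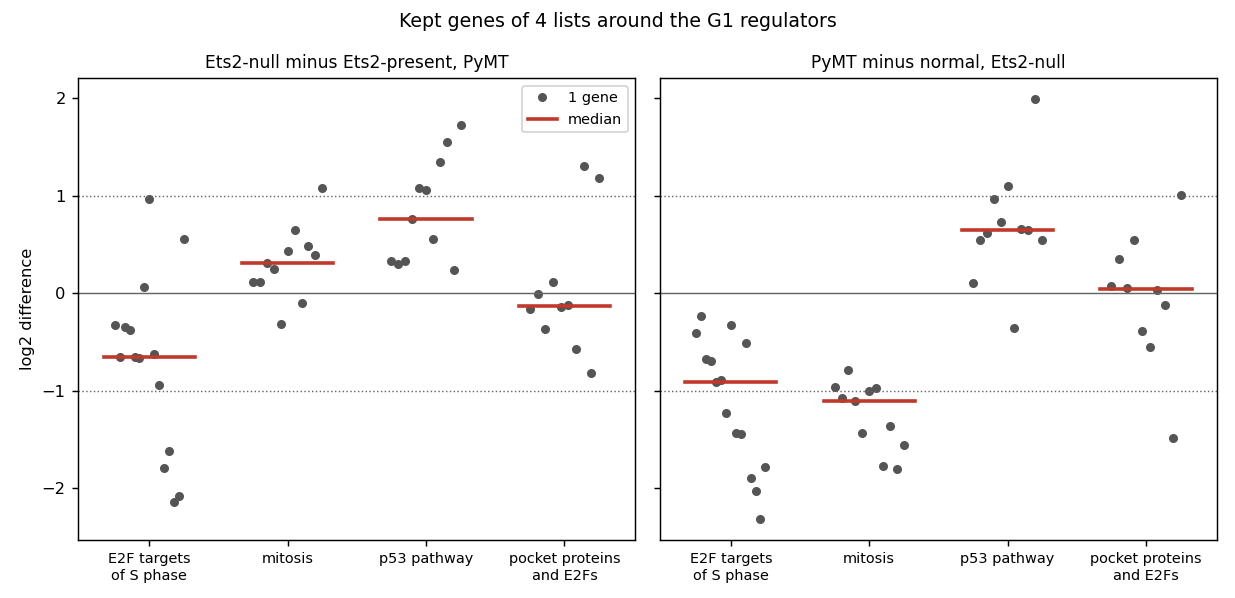
Log2 difference (vertical) of each kept gene of 4 lists, as Ets2-null minus Ets2-present in PyMT fibroblasts (left panel) and as PyMT minus normal in Ets2-null fibroblasts (right panel); points are genes, spread sideways for legibility, red bars are list medians and dotted lines mark 2-fold. E2F targets of S phase have medians of -0.65 and -0.92, mitosis genes 0.31 and -1.11, and p53 pathway genes 0.76 and 0.65.

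Of the parts of ligases that degrade cyclins and inhibitors, 0 of 9 were at least 2-fold higher or lower in the Ets2 difference in PyMT fibroblasts (median 0.05). Skp2, which marks Cdkn1b for degradation, had -0.14, and Fbxw7, which marks the E-type cyclins, 0.49. Of the transcription factors and chromatin repressors known to act upstream, 17 were kept, of which 0 were at least 2-fold higher and 3 lower (median -0.29). These were Fosl1 (-1.83), an AP-1 subunit of growing cells, Id2 (-1.71), an inhibitor of differentiation factors, and Foxo1 (-1.10), a factor that favours arrest. Foxo1 was below 4.63 in PyMT Ets2-null fibroblasts (4.07) and had -0.53 with low values raised, so that 2 of the 17 were then at least 2-fold lower. Fosl1 read 5.86 in PyMT Ets2-null and 7.69 in PyMT Ets2-present fibroblasts, and 6.36 in normal Ets2-null and 6.73 in normal Ets2-present fibroblasts. Myc had a difference of -0.11, and the repressors Bmi1 and Ezh2, which silence Cdkn2a, had -0.20 and -0.19. Tbx3 had the widest range of the list over the 4 arrays, 2.55, with an Ets2 difference of -0.29 in PyMT fibroblasts. Its PyMT difference was -2.55 in Ets2-null fibroblasts, where 4 of the 17 were above 0. In Ets2-present fibroblasts it was -2.19, where 6 of the 17 were above 0.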

How the data were processed

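RNA of cultured mammary fibroblasts was hybridised to Affymetrix mouse expression arrays, 1 array for each of 4 groups. The authors deposited RMA levels on the log2 scale, 1 per probe set (version not given in the sources used here). RMA corrects background, normalizes between arrays and summarizes probes. The table held 22690 probe sets, 64 of them controls, with values from 1.42 to 14.8. Scanner files were not used here, so detection could not be judged. The platform annotation gave a single gene for 20380 probe sets outside the controls, several for 691 and none for 1555. Names of 20351 matched RefSeq (GRCm38.p6) by Entrez ID.

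Levels were subtracted between arrays with Python 3.11.15 and pandas 2.3.3. The script was tested on simulated data. A gene was read from its brightest probe set on average, and genes whose highest value was under the 40th percentile (4.63) were left out. The genes and lists were chosen with earlier results of these data known. Ccnd1 is also on a list the study made from these arrays, so its difference is no independent evidence. Text names all 10 genes with every probe set. Of each pathway list it names the kept genes at least 2-fold apart in the Ets2 difference in PyMT fibroblasts, plus up to 3 of the widest range. Tyms, Skp2, Fbxw7, Myc, Bmi1, Ezh2 and Bbc3 were named after their values were seen. So were the cell type markers Lcp1, Msr1, Csf1r, Lyz1, Lyz2, Fabp4, Pdgfra, Pdgfrb, Fap, Thy1, Lum, Dcn, Krt18 and Krt19. Not every kept cell type marker at least 2-fold apart was named. Protein features that had been planned were not computed. Alternatives were no filter, a filter at the 60th percentile, low values raised to the filter level, median centring, cyclic loess (limma 3.58.1), the mean over probe sets, and leaving out probe sets ending in _x_at or _s_at.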

Additional observations from a re-analysis of the deposited data

Results flagged for a closer look

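For 4 genes the Ets2 difference had opposite signs in PyMT and in normal fibroblasts and the subtraction of one from the other was at least 2-fold, with 1 array per group, so that the difference between the comparisons was not tested. The Ets2 difference was 2.42 in PyMT and -0.34 in normal fibroblasts for Ccnd1 (subtraction 2.76), -1.53 in PyMT and 0.30 in normal fibroblasts for Ccne2 (-1.83), -0.95 in PyMT and 0.40 in normal fibroblasts for Ccne1 (-1.35), and 0.77 in PyMT and -0.32 in normal fibroblasts for Cdkn2b (1.10). Against the probe set disagreement of 0.48, the difference in normal fibroblasts was within it for all 4 of these probe sets. For Ccnd1 another probe set (1417419_at) had -0.89 in normal fibroblasts, beyond it, and all 3 probe sets were below 0.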

How the results depend on the processing

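Of 345 recomputed differences of single genes, 342 moved by less than the probe set disagreement and none at least 2-fold apart changed sign. The other 3 were those of Cdkn2a with low values raised, which gave 0.93 for the Ets2 difference in PyMT fibroblasts, 0 for the PyMT difference in Ets2-present fibroblasts and 0.33 for the subtraction. The count of members at least 2-fold apart in the PyMT difference in Ets2-present fibroblasts, Cdkn2a alone, was 0 with the filter at the 60th percentile, with low values raised, after median centring and after cyclic loess. The filter at the 60th percentile left out Cdkn2a, so that no value of it was obtained there. The Ets2 difference of Ccnd1 in PyMT fibroblasts ran from 2.00 to 2.52, that of Ccne2 from -1.53 to -1.43 and that of Ccne1 from -0.95 to -0.84. That of Ccnd2 took the opposite sign with the mean over probe sets (-0.02), as did that of Cdkn1a in normal fibroblasts (-0.04). Median centring moved the median Ets2 difference of all kept genes in PyMT fibroblasts to 0.13, against 0.02 as deposited. No paired analysis was possible because each group had 1 array, and for the same reason no array could be left out.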
